A study of Homo sapiens with 8 samples.

Results

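The microRNA host genes examined were 10 noncoding genes, found as the rows whose Ensembl identifier maps by GENCODE to MIR17HG, MIR503HG, MIR22HG, MIR100HG, MIR99AHG, MIR210HG, MIR4435-2HG, MIRLET7BHG, MIR9-3HG and MIR137HG. They were 10 of the 60668 genes in the count files, and every symbol was found once. RNA-Seq of polyA+ RNA was carried out on D283-OMO cells, a derivative of D283 Med, a long-established medulloblastoma line driven by MYC. The cells carry a lentiviral, FLAG-tagged OMOMYC transgene under a doxycycline (DOX)-inducible promoter and were selected with hygromycin B as a transduced population. The 4 OMO libraries came from cells without DOX, and the 4 OMO+DOX libraries from the same cells after 72 h with 0.25 µg/mL DOX. OMOMYC is a dominant-negative form of MYC that competes for its binding sites, so that both groups carry the transgene and differ by its induction. The study gave DOX to parental cells for cell counts and for qRT-PCR of selected long noncoding RNAs, but such cells are not among these libraries. An effect of DOX itself can thus not be told apart here from that of OMOMYC.

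A microRNA host gene is transcribed into a long precursor from which the hairpins of one or more microRNAs are cut by the nuclear enzyme DROSHA. DICER1 then releases the mature microRNA, which is loaded on an Argonaute protein and pairs through its seed, bases 2 to 8, with messenger RNAs to repress them. MYC is known for activating the miR-17 to miR-92a cluster of MIR17HG and for repressing many other microRNAs, let-7 and miR-22 among them. The libraries measure the polyadenylated RNA of the hosts, which for hairpins in exons can be what is left after cleavage and for hairpins in introns the spliced product. Mature microRNAs were not measured.

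Within the annotated spans of the 10 genes, on their own strand, RefSeq placed 24 microRNA loci. The loci lay in exons for MIR17HG, MIR22HG and MIR137HG and, except for miR-3619, for MIRLET7BHG. They lay in introns for the other 6 hosts. The mature sequences that define what each host gives rise to are shown here 5′ to 3′ from RefSeq on GRCh38.p14, with the seed in capitals, because several hosts share a seed.
hsa-miR-17-5p (chr13:91350618-91350640, plus strand, from MIR17HG): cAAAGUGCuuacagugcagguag
hsa-miR-20a-5p (chr13:91351072-91351094, plus strand, from MIR17HG): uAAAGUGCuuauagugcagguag
hsa-miR-18a-5p (chr13:91350756-91350778, plus strand, from MIR17HG): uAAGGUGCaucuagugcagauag
hsa-miR-19a-3p (chr13:91350939-91350961, plus strand, from MIR17HG): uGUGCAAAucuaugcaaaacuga
hsa-miR-19b-3p (chr13:91351245-91351267, plus strand, from MIR17HG): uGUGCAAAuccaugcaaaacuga
hsa-miR-92a-3p (chr13:91351361-91351382, plus strand, from MIR17HG): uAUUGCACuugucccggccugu
hsa-miR-503-5p (chrX:134546371-134546393, minus strand, from MIR503HG): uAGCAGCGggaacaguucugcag
hsa-miR-424-5p (chrX:134546680-134546701, minus strand, beside MIR503HG): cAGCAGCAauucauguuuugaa
hsa-miR-100-5p (chr11:122152275-122152296, minus strand, from MIR100HG): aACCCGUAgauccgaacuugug
hsa-miR-99a-5p (chr21:16539101-16539122, plus strand, from MIR99AHG): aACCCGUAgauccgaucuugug
hsa-miR-125b-5p (chr11:122099809-122099830, minus strand, from MIR100HG): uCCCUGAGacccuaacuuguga
hsa-miR-125b-5p (chr21:16590253-16590274, plus strand, from MIR99AHG): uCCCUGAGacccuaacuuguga
hsa-let-7a-5p (chr11:122146568-122146589, minus strand, from MIR100HG): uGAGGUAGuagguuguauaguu
hsa-let-7a-5p (chr22:46112752-46112773, plus strand, from MIRLET7BHG): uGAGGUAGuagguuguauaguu
hsa-let-7c-5p (chr21:16539838-16539859, plus strand, from MIR99AHG): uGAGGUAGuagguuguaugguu
hsa-let-7b-5p (chr22:46113691-46113712, plus strand, from MIRLET7BHG): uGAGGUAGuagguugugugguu
hsa-miR-9-5p (chr15:89368032-89368054, plus strand, from MIR9-3HG): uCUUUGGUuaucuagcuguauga
hsa-miR-137-3p (chr1:98046091-98046113, minus strand, from MIR137HG): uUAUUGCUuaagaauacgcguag
hsa-miR-22-3p (chr17:1713914-1713935, minus strand, from MIR22HG): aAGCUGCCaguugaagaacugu
hsa-miR-210-3p (chr11:568112-568133, minus strand, from MIR210HG): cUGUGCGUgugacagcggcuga
hsa-miR-4435 (chr2:111321061-111321082, minus strand, from MIR4435-2HG): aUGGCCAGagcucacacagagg

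Several hosts shared a seed. MIR100HG and MIR99AHG carry paralogous clusters: miR-100-5p and miR-99a-5p have the seed ACCCGUA and differ by A16U, counted from the 5′ end with the miR-100-5p base first, and both hosts hold a copy of miR-125b-5p with the same mature sequence. Let-7a-5p, let-7b-5p and let-7c-5p, with the seed GAGGUAG, come from MIR100HG, MIRLET7BHG and MIR99AHG. Let-7c-5p differs from let-7a-5p by A19G, and let-7b-5p by A17G and A19G, all outside the seed. Within MIR17HG, miR-17-5p and miR-20a-5p share AAAGUGC, and miR-19a-3p and miR-19b-3p share GUGCAAA. The seed of miR-503-5p, AGCAGCG, resembles that of miR-424-5p, AGCAGCA. The hairpin of miR-424 was not inside MIR503HG, as 19 of its 98 bases overlap the annotated 5′ end of the host.

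Library totals ran from 46592882 to 54020451 counts in OMO and from 38390649 to 49249120 in OMO+DOX. Values are RSEM expected counts, given as CPM, which scale each count to a common library size with the TMM factors, and 3 counts corresponded to between 0.0581 and 0.0748 CPM. The 15222 genes that exceeded 1 CPM in 4 or more libraries were compared by the quasi-likelihood test of edgeR with p-values adjusted over all of them after Benjamini and Hochberg, and a gene is said to have risen or fallen where its adjusted p was under 0.05. As OMOMYC derives from MYC, the MYC count may hold transgene reads, and the inhibition was checked on the MYC targets CAD, a pyrimidine synthesis enzyme, and NCL, a nucleolar protein. CAD went from 162 ± 4.07 to 116 ± 4.75 CPM (SD, n = 4 each) and NCL from 1554 ± 58.6 to 1145 ± 5.73 CPM. Both fell, with a log2FC of -0.48 (SE 0.05) and -0.44 (SE 0.04). All 7 markers of Group 3 medulloblastoma looked at were detected, in a line that the study places between Group 3 and Group 4. The transcription factor OTX2, 1 of the 7, stood at 1049 ± 17.4 CPM in OMO and 510 ± 1.79 CPM in OMO+DOX. Under DOX 6 of the 7 fell, while EYS rose, a call lost without untreated replicate 3, and the summed levels were 2211 to 2424 CPM in OMO and 721 to 740 CPM in OMO+DOX. Over all genes tested 38.1% fell. The part of these markers in the changes of the hosts was not tested. Of 10 markers of immune, endothelial, fibroblast, astrocyte and liver cells, COL1A1 was the only one above the filter, at 22.1 ± 0.613 and 23.4 ± 1.81 CPM. The fibroblast genes DCN and COL1A2 were lower in OMO+DOX without overlap, with 21 to 36 against 0 to 1 counts and 7 to 15 against 0 to 2 counts. ALB of the liver, with 12 to 22 against 31 to 40 counts, and AQP4 of astrocytes, with 1 to 3 against 4 to 9 counts, were higher without overlap. The other 6 markers overlapped between the groups, and among them CD3E had at most 1 count and PECAM1 at most 2 counts in any library. The summed level of the 10 markers was 23.5 to 24.3 CPM in OMO and 22.3 to 25.8 CPM in OMO+DOX, and their part in the changes of the hosts was not tested. Untreated replicate 3 correlated less with its group than the other libraries did, with a mean Pearson's r of 0.993 across genes against 0.9958 to 0.9974, and results are given without it where it matters.

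Of the 10 hosts 9 passed the filter, and 6 of these changed under DOX, 3 rising and 3 falling. This share was not above that of the whole table, where 76.6% of the genes tested changed, 38.5% upwards and 38.1% downwards. MIR22HG, MIR100HG and MIR137HG rose, MIR503HG, MIR99AHG and MIR9-3HG fell, and MIR17HG, MIR210HG and MIRLET7BHG did not pass the test. MIR4435-2HG stayed below the filter. MIR100HG passed the filter only through its OMO+DOX libraries and so had to differ, whereas the other 8 exceeded 1 CPM in at least 3 OMO libraries. With the study's stricter thresholds (adjusted p under 0.001 and a log2FC beyond 2 in either direction), MIR503HG, MIR22HG and MIR100HG were differentially expressed, against a background of 7.12%, with 4.38% upwards and 2.75% downwards. The values of the groups did not overlap for 6 of the 9, where 71.7% of all genes tested were without overlap. Among the 1426 long noncoding genes tested, 70.3% changed, 10.4% passed the study's thresholds and 64.7% were without overlap.

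**Figure D1:**
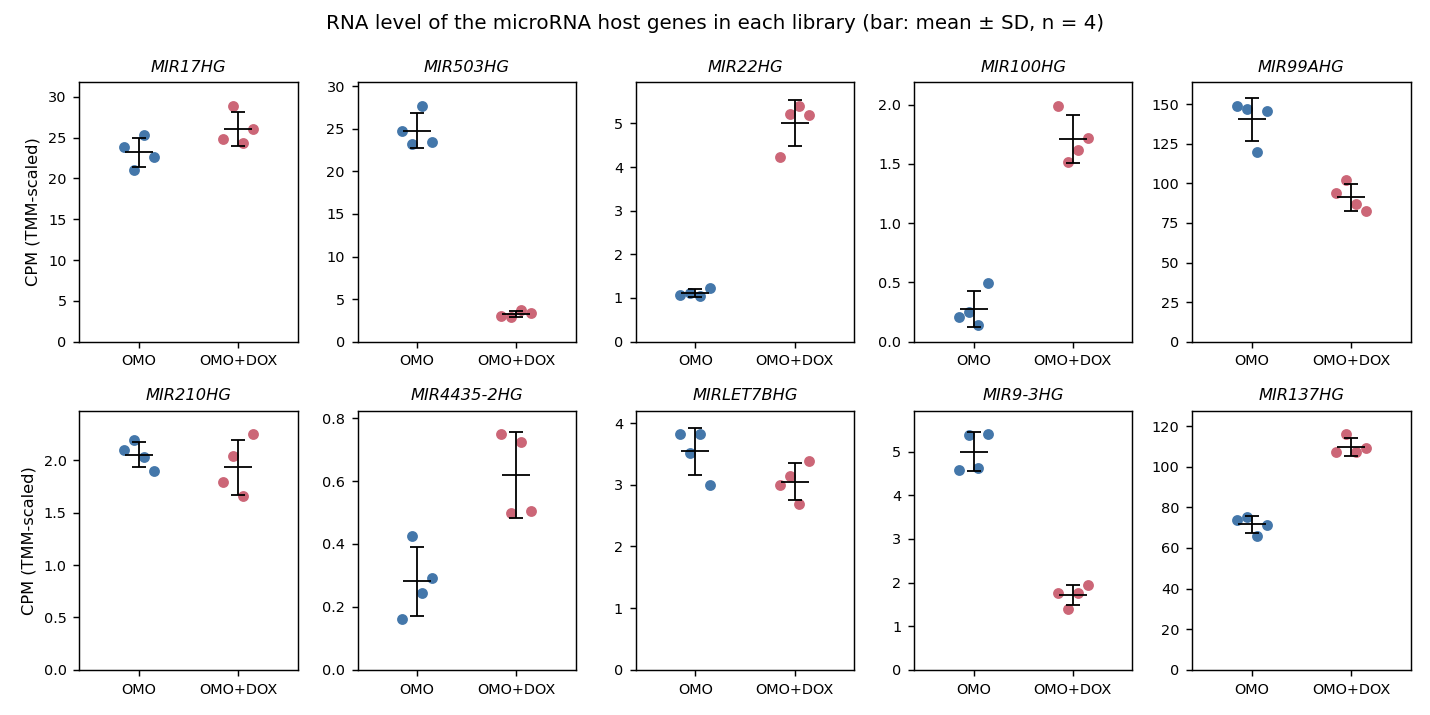
RNA level of each of the 10 host genes in CPM (TMM-scaled, vertical axes from 0), with OMO libraries in blue and OMO+DOX libraries in red. Points are libraries and bars the mean ± SD (n = 4). The groups are fully apart for 7 genes and overlap for MIR17HG, MIR210HG and MIRLET7BHG.

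**Figure D2:**
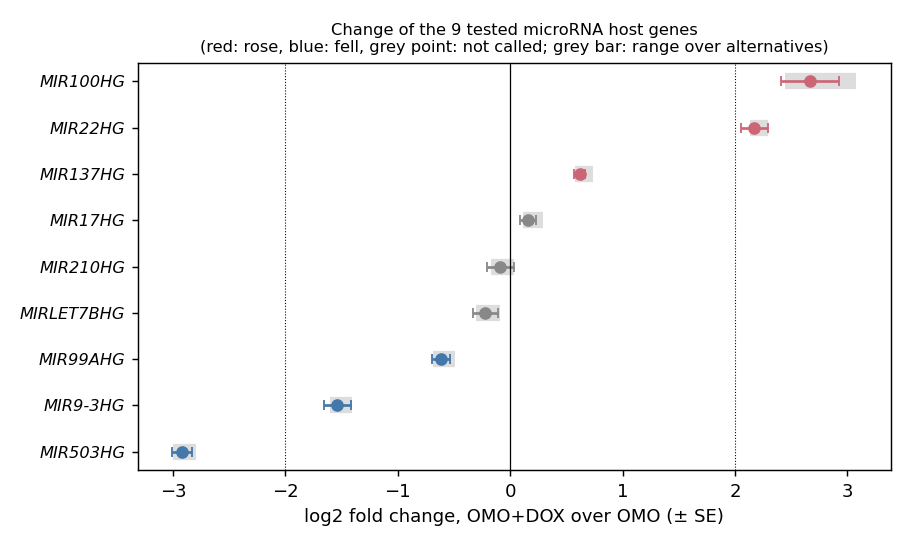
log2FC of the 9 tested hosts with its standard error (points and whiskers), and in grey the range over 13 or 14 alternative analyses. MIR100HG and MIR22HG lie above 2 and MIR503HG below -2 (dotted lines), while MIR17HG, MIR210HG and MIRLET7BHG lie near 0.

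MIR17HG (ENSG00000215417.13, chr13:91347820-91354579, plus strand) is the precursor of the oncogenic miR-17 to miR-92a cluster, whose members hold down cell cycle inhibitors and pro-apoptotic proteins. The OMO libraries gave 23.9, 21.1, 25.3 and 22.6 CPM, and the OMO+DOX libraries 24.9, 28.9, 24.3 and 26.1 CPM. The ranges overlap, since the highest OMO library, replicate 3, stood above 2 of the OMO+DOX libraries. The mean of MIR17HG was thus not lower with OMOMYC: its log2FC was 0.16 (SE 0.07), with an adjusted p = 0.0528 in edgeR. The side of the threshold depended on single libraries, as the log2FC was 0.20 without untreated replicate 3 (adjusted p = 0.0114) and 0.20 without DOX replicate 3 (adjusted p = 0.039). With scaling by library size alone it was 0.29 (adjusted p = 0.00259), in a fit that moved the median log2FC of all genes from 0.012 to 0.139.

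The related miR-106b cluster, of which miR-106b-5p and miR-93-5p share the seed of miR-17-5p, lies in an intron of MCM7, a subunit of the replicative helicase. MCM7 fell, from between 181 and 206 CPM in OMO to between 57.8 and 66.6 CPM in OMO+DOX, a log2FC of -1.59 (SE 0.06, adjusted p = 4.56e-10 in edgeR). The seed of miR-92a-3p, AUUGCAC, was also carried by MCM7 itself (miR-25), and by TMEM245 (miR-32) and THBS3-AS1 (miR-92b), which rose by 0.41 (SE 0.07) and 0.93 (SE 0.11) on the log2 scale. Of the 4 tested hosts of the miR-92a seed 2 thus rose, MCM7 fell and MIR17HG did not pass the test. Over all genes tested 38.5% rose.

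All 6 genes in a list of known miR-17 to miR-92a targets changed, 4 upwards and 2 downwards, where 76.6% of all genes tested changed. CCN2, a matricellular protein, rose from 4.53 ± 0.303 to 44.1 ± 2.44 CPM, TGFBR2 from 7.59 ± 0.518 to 17.1 ± 0.585 CPM and CDKN1A, the cell cycle inhibitor p21, from 103 ± 8.15 to 222 ± 12.9 CPM. THBS1, an inhibitor of angiogenesis, fell from 452 ± 38.8 to 71.2 ± 2.65 CPM, and the cell cycle factor E2F1 from 54.5 ± 4.80 to 14.9 ± 1.25 CPM. Thus the listed targets moved both ways beside a host that did not pass the test.

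MIR503HG (ENSG00000223749.10, chrX:134543337-134546632, minus strand) gives rise to miR-503, a relative of the miR-15/16 family that restrains cell cycle genes. It had the largest fall among the hosts, from 24.8, 23.2, 27.7 and 23.5 CPM in OMO to 3.02, 2.89, 3.71 and 3.39 CPM in OMO+DOX. Every OMO library was far above every OMO+DOX library, and the counts behind these values were at least 116 per library. The log2FC was -2.92 (SE 0.09, adjusted p = 8.88e-11 in edgeR), a 7.59-fold lower level. The neighbour HPRT1, a purine salvage enzyme on the opposite strand 22824 bp away, had 24.8 ± 1.20 and 25.8 ± 1.68 CPM and did not pass the test (log2FC 0.05, SE 0.06). PLAC1, on the same strand 19206 bp away, stayed below the filter and was not tested. It was higher in OMO+DOX without overlap, at 0.523 to 0.793 CPM in OMO and 0.907 to 1.27 CPM in OMO+DOX.

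Of 6 known targets of miR-503 and miR-424, 5 were tested, and 4 fell while none rose. Over all genes tested 38.1% fell, and the part of MIR503HG in the falls of its listed targets was not tested. CDC25A, WEE1 and CHEK1, which control entry into mitosis and the checkpoint before it, had a log2FC of -1.85 (SE 0.05), -1.20 (SE 0.05) and -1.55 (SE 0.05). The G1 cyclin CCND3 fell by 0.70 (SE 0.07) on the log2 scale, and CCNE1 did not pass the test at 0.12 (SE 0.08). CCND1 was below the filter and not tested, but was higher in OMO+DOX without overlap, with 2 to 5 against 13 to 19 counts.

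MIR100HG (ENSG00000255248.9, chr11:122028327-122556721, minus strand) and MIR99AHG (ENSG00000215386.13, chr21:15928296-16645065, plus strand) carry microRNAs that share seeds. They span 528395 and 716770 bp and hold a miR-99/100, a let-7 and a miR-125b hairpin in introns, a set known to be high in differentiated cells and to restrain growth factor signalling. MIR100HG gave 0.204, 0.252, 0.142 and 0.493 CPM in OMO, from 7 to 22 counts, and 1.99, 1.52, 1.62 and 1.72 CPM in OMO+DOX, from 61 to 101 counts. All OMO+DOX libraries were above all OMO libraries, and untreated replicate 4 was the highest of the OMO group. The log2FC was 2.67 (SE 0.26, adjusted p = 1.87e-06 in edgeR), the largest standard error among the hosts. With any 1 library left out and the gene list kept, it was between 2.45 and 3.08. As MIR100HG passed the filter through the OMO+DOX libraries alone, it had to differ, and these values describe only the size of the difference.

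MIR99AHG stood at 149, 147, 120 and 146 CPM in OMO and at 93.8, 102, 87.0 and 82.4 CPM in OMO+DOX. Untreated replicate 3 was the lowest of its group but still above all OMO+DOX libraries. The log2FC was -0.62 (SE 0.08, adjusted p = 2.66e-05 in edgeR), and -0.69 without untreated replicate 3. The fall of MIR99AHG, from a mean of 140 ± 13.6 to 91.3 ± 8.58 CPM (SD, n = 4 each), was larger in CPM than the whole level of MIR100HG in OMO+DOX, 1.71 ± 0.202 CPM.

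The other host of both a miR-99/100 and a miR-125 hairpin that passed the filter was SPACA6, whose span holds miR-99b, let-7e and miR-125a. It fell from 25.8 ± 1.64 to 14.8 ± 1.14 CPM, a log2FC of -0.80 (SE 0.07, adjusted p = 5.18e-07 in edgeR).

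MIRLET7BHG (ENSG00000197182.14, chr22:46053869-46113928, plus strand) carries let-7a-3 and let-7b in an exon at its 3′ end. It gave 3.82, 3.52, 3.82 and 3.003 CPM in OMO and 2.997, 3.14, 2.68 and 3.39 CPM in OMO+DOX. The groups overlap because untreated replicate 4 lay at the level of the OMO+DOX libraries. With a log2FC of -0.22 (SE 0.11) the gene did not pass the test (adjusted p = 0.093 in edgeR), while without untreated replicate 4 it was called at -0.30 (adjusted p = 0.0314). Of its exonic bases 52 are shared with PRR34 on the opposite strand and 52 with PRR34-AS1, which had a log2FC of -0.19 (SE 0.14).

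Counting only genes whose GENCODE 29 span holds a RefSeq microRNA with the let-7 seed on the same strand, 9 were tested. Of these 3 rose, 4 fell and 2 did not pass the test, where 76.6% of all genes tested changed. The largest rise was that of MIR4500HG, host of miR-4500, from 0.347, 0.445, 0.407 and 0.314 CPM in OMO to 13.7, 14.2, 12.4 and 12.9 CPM in OMO+DOX. Its log2FC was 5.12 (SE 0.11, adjusted p = 5.21e-12 in edgeR), and like MIR100HG it passed the filter through the OMO+DOX libraries alone. MIR4458HG rose by 0.34 (SE 0.06) on the log2 scale. MIRLET7A1HG, which is named for let-7a-1 but whose GENCODE 29 span holds no such locus, was outside this count and rose from 8.30 ± 0.933 to 12.3 ± 0.641 CPM (log2FC 0.56, SE 0.08). WDR82, host of let-7g, fell by 0.22 (SE 0.05), and MIRLET7IHG fell by 0.26 (SE 0.11) with an adjusted p = 0.0492 in edgeR, a call lost with scaling by library size alone. HUWE1, a ubiquitin ligase gene that holds let-7f-2 and miR-98, was the most abundant at 511 ± 59.1 and 493 ± 20.5 CPM and did not pass the test.

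Of 5 known let-7 targets 3 fell, and the other 2 did not pass the test, where 38.1% of all genes tested fell. HMGA2, a fetal chromatin protein, went from 117 ± 8.61 to 67.4 ± 3.11 CPM (log2FC -0.79, SE 0.06), and IGF2BP1, a fetal mRNA-binding protein, from 430 ± 33.6 to 322 ± 18.3 CPM (log2FC -0.42, SE 0.06). NRAS had a log2FC of -0.14 (SE 0.06), a call lost with scaling by library size alone. LIN28B, which blocks the maturation of let-7, had 13.0 ± 1.31 and 13.8 ± 1.11 CPM and did not pass the test, and LIN28A had at most 3 counts in any library.

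**Figure D3:**
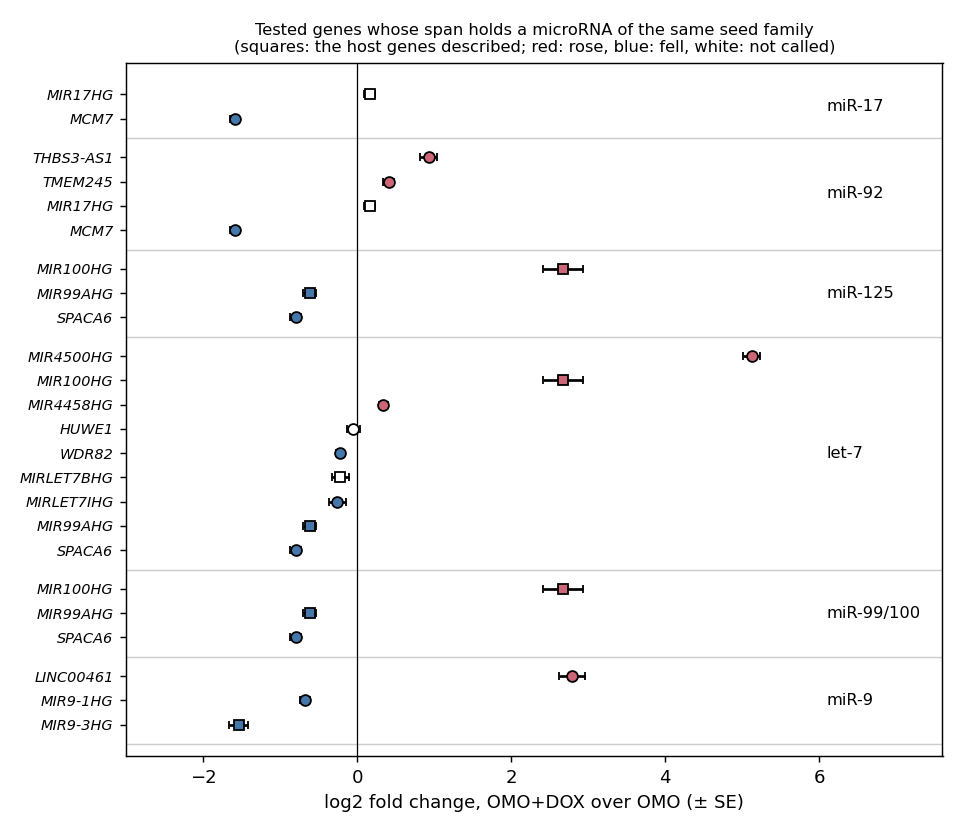
log2FC ± SE of all tested genes whose span holds, on the same strand, a microRNA with the seed of miR-17, miR-92, miR-125, let-7, miR-99/100 or miR-9. Squares are the hosts described and circles other genes. Red marks genes that rose and blue genes that fell. The risers of the miR-125 and miR-99/100 families (MIR100HG) and of the miR-9 family (LINC00461) passed the filter through OMO+DOX alone. The same holds for MIR100HG and MIR4500HG in the let-7 family.

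MIR9-3HG (ENSG00000255571.9, chr15:89361579-89398487, plus strand) holds miR-9-3 in an intron. miR-9 is a microRNA of neural progenitors and the developing brain, and the same mature sequence is also encoded at the MIR9-1 and MIR9-2 loci. MIR9-3HG had 4.59, 5.38, 4.64 and 5.40 CPM in OMO and 1.77, 1.40, 1.76 and 1.94 CPM in OMO+DOX. Every OMO library was above every OMO+DOX library, with a log2FC of -1.54 (SE 0.12, adjusted p = 2.05e-07 in edgeR), or a 2.90-fold lower level. The host of miR-9-1, MIR9-1HG (C1orf61), also fell, from 66.3 ± 5.21 to 41.4 ± 2.27 CPM (log2FC -0.68, SE 0.06).

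The host of miR-9-2, LINC00461, rose instead, from 0.918, 0.697, 0.447 and 0.538 CPM to 4.61, 4.83, 4.01 and 4.71 CPM, a log2FC of 2.79 (SE 0.17, adjusted p = 3.64e-08 in edgeR). It too passed the filter through OMO+DOX alone. In OMO+DOX LINC00461 was thus above MIR9-3HG in CPM, and in OMO below it, whereas MIR9-1HG was the most abundant in both groups. CPM are not corrected for length here. The neighbour of MIR9-3HG at the lower coordinate, POLG, the mitochondrial DNA polymerase gene 26718 bp away, had a log2FC of 0.06 (SE 0.05) and did not pass the test, and RHCG had at most 1 count.

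MIR137HG (ENSG00000225206.10, chr1:97933474-98049863, minus strand) gives rise to miR-137, which is known for its part in neuronal differentiation, and to miR-2682. It had 73.8, 75.1, 65.9 and 71.5 CPM in OMO and 107, 116, 107 and 109 CPM in OMO+DOX, without overlap. The log2FC was 0.62 (SE 0.05, adjusted p = 5.41e-07 in edgeR), a 1.53-fold higher level. Its counts were not whole numbers in any of the 8 libraries, as RSEM divides reads that match several transcripts, and 494 of its exonic bases are shared with DPYD, the pyrimidine-degrading enzyme, on the same strand. DPYD itself had 329 ± 27.0 and 366 ± 8.82 CPM, a log2FC of 0.15 (SE 0.06, adjusted p = 0.0327 in edgeR). The part of reads shared with DPYD in the rise of MIR137HG was not tested.

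The 10 genes listed as targets of miR-9, miR-137, miR-210 or miR-100 were all tested, with 4 up and 4 down. Over all genes tested 38.5% rose and 38.1% fell. ONECUT2, a neural homeobox factor and target of miR-9, rose by 0.94 (SE 0.13) on the log2 scale. EZH2 and CDK6, targets of miR-137, fell, with a log2FC of -1.07 (SE 0.04) and -0.88 (SE 0.10). KDM1A, also a target of miR-137, fell by 0.25 (SE 0.04). FGFR3, a target of miR-99/100, rose by 1.24 (SE 0.10), and ISCU, the iron-sulphur scaffold repressed by miR-210, by 0.39 (SE 0.05).

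MIR22HG (ENSG00000186594.14, chr17:1711493-1717174, minus strand) is the exonic precursor of miR-22, a microRNA repressed by MYC in other cells and induced by many stresses. It gave 1.06, 1.12, 1.04 and 1.23 CPM in OMO and 4.24, 5.21, 5.40 and 5.20 CPM in OMO+DOX. No library overlapped, and replicate 1 was the lowest of the OMO+DOX group. The log2FC was 2.17 (SE 0.12, adjusted p = 8.84e-09 in edgeR), a 4.49-fold higher level, and between 2.13 and 2.24 with any 1 library left out. The closest protein-coding genes outside the span of MIR22HG both fell. TLCD2, on the same strand 1055 bp away, had a log2FC of -0.36 (SE 0.09), and SERPINF2 one of -1.10 (SE 0.20). WDR81, which overlaps the span on the opposite strand without sharing an exonic base, rose by 0.24 (SE 0.06).

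MIR210HG (ENSG00000247095.3, chr11:565660-568457, minus strand) is the host of miR-210, the best known microRNA of the response to hypoxia. Its values were 2.10, 2.19, 2.03 and 1.91 CPM in OMO and 1.79, 2.04, 1.66 and 2.25 CPM in OMO+DOX. The OMO values lay within the range of the OMO+DOX values. The log2FC was -0.09 (SE 0.12, adjusted p = 0.494 in edgeR), and its sign turned to 0.03 with scaling by library size alone. RASSF7, 1639 bp away on the opposite strand, fell by 0.63 (SE 0.11), and PHRF1, on the other side, had a log2FC of -0.09 (SE 0.05).

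MIR4435-2HG (ENSG00000172965.16, chr2:111036776-111523376, minus strand) is a long noncoding RNA reported in many tumours, with miR-4435-2 in an intron. It had 0.163, 0.426, 0.244 and 0.291 CPM in OMO and 0.749, 0.498, 0.723 and 0.506 CPM in OMO+DOX, from 8 to 22 and from 20 to 38 counts. The OMO+DOX libraries were all above the OMO libraries, a 2.20-fold higher mean with p = 0.0286 in a two-sided exact permutation test, the smallest that 4 against 4 libraries allow. Without a filter on low counts, edgeR gave a log2FC of 1.11 (SE 0.29, adjusted p = 0.00194).

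This gene could be measured less surely than the others. Its counts were fractional in 8 of 8 libraries, and its near-identical copy CYTOR, named here after its values were seen, had at most 3 counts in each OMO library and 0.198 to 0.374 CPM in OMO+DOX, at least 4.45-fold higher against a floor of 3 counts per library. Of its exonic bases 727 are also exonic in BCL2L11, a pro-apoptotic gene on the opposite strand, which rose by 0.70 (SE 0.07) on the log2 scale. Strand use in the counting is not given in the sources used here.

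Levels were also set against exonic length, as CPM per kb of the exonic bases annotated in GENCODE 29. In OMO the order of mean levels was MIR503HG (14.8), MIR99AHG (12.4), MIR137HG (9.98), MIR17HG (6.65), MIR210HG (0.886), MIR9-3HG (0.688), MIRLET7BHG (0.618), MIR22HG (0.373), MIR4435-2HG (0.0215) and MIR100HG (0.0141 CPM per kb). Neighbours in this order were apart in all libraries except MIR9-3HG and MIRLET7BHG, and MIR4435-2HG and MIR100HG, whose ranges overlapped. In OMO+DOX MIR137HG was first at 15.3 CPM per kb, followed by MIR99AHG (8.05) and MIR17HG (7.46), whose ranges overlapped. MIR503HG (1.94) came next and overlapped with MIR22HG (1.68), which had moved above MIR210HG (0.834) and MIRLET7BHG (0.533). MIR9-3HG (0.236), MIR100HG (0.0884) and MIR4435-2HG (0.0473 CPM per kb) were last. The summed level of the 10 genes was 251 to 283 CPM in OMO and 236 to 264 CPM in OMO+DOX, so that their total overlapped between groups while its makeup differed.

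**Figure D4:**
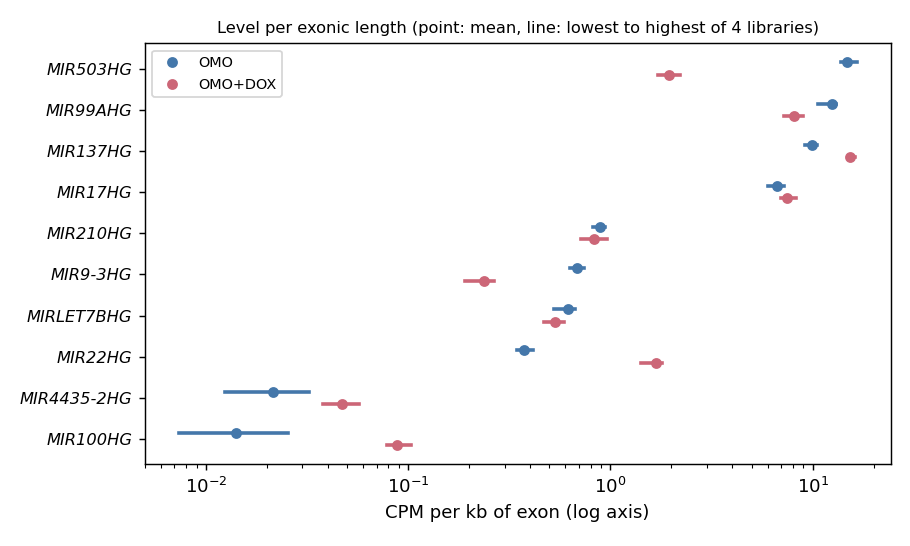
Level of each host in CPM per kb of exon on a log axis, in the order of the OMO means. Points are means and lines run from the lowest to the highest of 4 libraries (OMO blue, OMO+DOX red). MIR503HG drops below MIR137HG, MIR99AHG and MIR17HG, and MIR22HG and MIR100HG shift to the right.

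The nearest protein-coding genes on both sides of each host were 20, of which 17 were tested. With 8 up, 5 down and 4 that did not pass the test, the share that changed was not above the 76.6% of all genes tested. Around MIR17HG, SLITRK5, a synaptic membrane protein gene 3651548 bp away, rose from 14.4 ± 0.670 to 212 ± 7.13 CPM (log2FC 3.88, SE 0.05), and GPC5, 44028 bp away, rose by 1.20 (SE 0.13) on the log2 scale. Around MIR100HG, SORL1 rose by 0.97 (SE 0.10) and UBASH3B fell by 0.40 (SE 0.11). Beside MIR99AHG, CXADR, a cell adhesion receptor gene, rose by 0.79 (SE 0.06), against the direction of the host, and USP25 had a log2FC of -0.11 (SE 0.05). On either side of MIR4435-2HG, ANAPC1, a subunit of the anaphase-promoting complex, rose by 1.74 (SE 0.06), and the mitotic kinase gene BUB1 fell from 58.0 ± 3.60 to 28.9 ± 2.34 CPM. PPARA, next to MIRLET7BHG, rose by 0.82 (SE 0.09). WNT7B, on the other side, was below the filter but higher in OMO+DOX without overlap, with 2 to 8 against 26 to 32 counts. Both neighbours of MIR137HG rose, PTBP2 by 0.18 (SE 0.05) and SNX7 by 0.57 (SE 0.06), 1109736 and 611838 bp away.

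**Figure D5:**
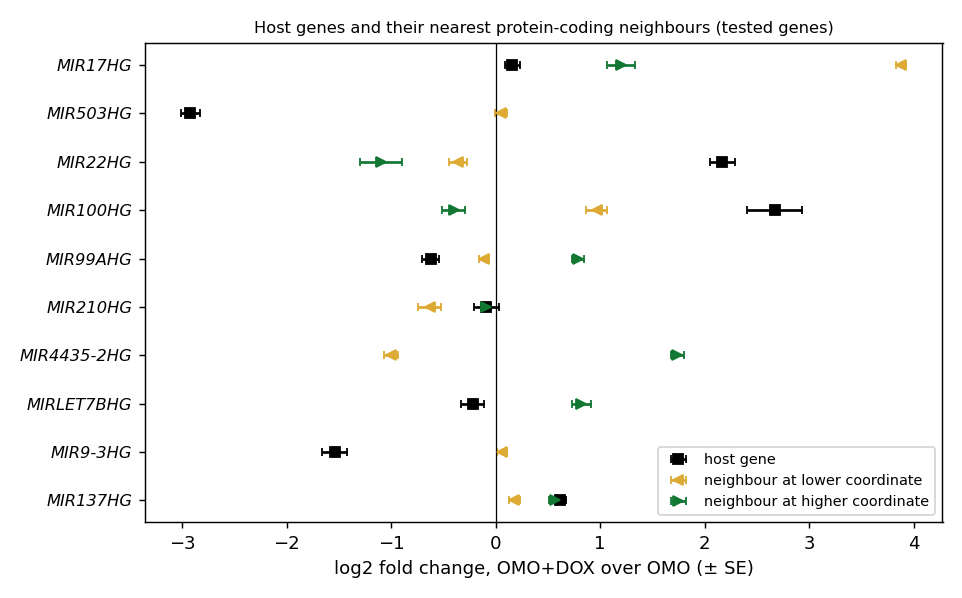
log2FC ± SE of each tested host (black squares) and of its nearest protein-coding neighbours at the lower (yellow) and higher (green) coordinate. MIR503HG, MIR9-3HG, MIR22HG, MIR17HG, MIR100HG, MIR99AHG and MIRLET7BHG lie apart from their tested neighbours. For MIR137HG, MIR17HG and MIR210HG both neighbours lie on the same side of 0 as the host. Of these genes MIR17HG, MIR210HG and the neighbour PHRF1 did not pass the test, and the sign of MIR210HG turned with scaling by library size alone.

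The promoters were searched because MYC binds the E-box CACGTG and its variant CACGCG (on the other strand CGCGTG). RefSeq windows of 250 bases before to 50 after a start were at hand for all 10 hosts, 23 windows in total. CACGTG occurred in 0 of the 23, where 7.26% of all 35116 windows hold it. CACGCG or CGCGTG occurred in 1 window of MIR503HG and in 1 of the 4 windows of MIR9-3HG, against 11.4% of all windows. Both matches are shown with the motif in capitals on the strand of the gene, from GRCh38.p14.
MIR503HG (chrX:134546587-134546616, minus strand): gggtctgccggaCGCGTGttcctgccacca
MIR9-3HG (chr15:89377913-89377942, plus strand): gtgacctgaggaCGCGTGtgtccccgccct
In MIR503HG the match begins 26 bases after the start. In MIR9-3HG it begins 179 bases before an alternative start, in the window chr15:89377854-89378153. This window lies downstream of the miR-9-3 hairpin (chr15:89368017-89368106), and the MIR9-3HG windows upstream of the hairpin hold no match. A match describes the letters only, and binding of MYC at these places was not analysed here.

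Of the other genes named MIR...HG, 75 were in the files, 23 passed the filter, and 37 had at most 3 counts in every library. Among the 23, 9 rose, 7 fell and 7 did not pass the test, where 76.6% of all genes tested and 70.3% of the long noncoding ones changed. Beside MIR4500HG the largest rises were those of MIR124-2HG, a host of the neuronal miR-124, by 1.88 (SE 0.17) on the log2 scale, and of MIR181A1HG by 1.79 (SE 0.17). Both were under 1 CPM in every OMO library, so that they passed the filter through OMO+DOX. The largest falls were those of MIR1915HG, with a log2FC of -1.34 (SE 0.06), of MIR124-1HG, with -0.95 (SE 0.08), and of MIR924HG, with -0.91 (SE 0.12).

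In a list of 29 microRNA hosts that carry other names, most of them protein-coding, 26 were tested, with 6 up and 15 down. Over all genes tested 38.5% rose and 38.1% fell. C1orf61 (MIR9-1HG) is among those that fell and is also counted with the MIR...HG genes above. After LINC00461, DLEU2, host of miR-15a and miR-16-1, had the largest rise, from 9.45 ± 0.698 to 31.3 ± 2.60 CPM (log2FC 1.72, SE 0.07), and GABRE, host of miR-224, rose by 0.91 (SE 0.12). TRPM1 and TRPM3, cation channel genes that host miR-211 and miR-204, fell, with a log2FC of -2.58 (SE 0.09) and -0.89 (SE 0.07), and MCM7 lay between them. The median log2FC of this list was -0.35, that of the tested hosts above -0.09 and that of all genes 0.01.

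Of 22 genes that make or use microRNAs 21 were tested, and 7 rose while 8 fell, where 76.6% of all genes tested changed. XPO5, which exports the hairpins from the nucleus, fell from 135 ± 4.89 to 93.7 ± 1.32 CPM (log2FC -0.52, SE 0.04). Its cofactor RAN and TARBP2, a partner of DICER1, fell as well, with a log2FC of -0.40 (SE 0.05) and -0.35 (SE 0.06). DROSHA fell by 0.31 (SE 0.04). TNRC6B, a scaffold of the silencing complex, rose from 56.3 ± 8.90 to 175 ± 13.3 CPM (log2FC 1.64, SE 0.11), ZSWIM8, which directs Argonaute decay, by 0.84 (SE 0.05), and the uridyltransferase TUT7 by 0.52 (SE 0.10). DICER1 did not pass the test, with 85.5 ± 17.6 and 82.8 ± 6.29 CPM, and neither did AGO2. The counts moved to 7 up and 12 down without untreated replicate 3, and to 9 up and 5 down with scaling by library size alone.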

How the data were processed

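RNA-Seq libraries of D283-OMO cells, 4 OMO and 4 OMO+DOX, were grouped by their titles. Per the labels and the study's methods, trimming used Trim Galore, alignment STAR on GRCh38 with GENCODE 32, and the authors deposited RSEM expected counts per gene, not normalized. Reads that match several genes are thus already divided among them. The study calls the replicates independent biological ones.

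Counts were rounded and tested with edgeR 4.0.16 in R 4.3.3 (TMM, quasi-likelihood, Benjamini-Hochberg over the 15222 genes exceeding 1 CPM in 4 or more of 8 libraries, no covariates). The filter follows the study's results text, and the thresholds its methods. The SE was computed as the absolute log2FC over the square root of F. The common biological coefficient of variation was 0.0745. Tested on simulated counts of this comparison over 15222 genes, 95 of 100 genes changed by an absolute log2FC of 1 and 99 of 100 changed by 2 were called, with 8 calls among 15022 unchanged genes. Far fewer genes were changed in the simulation than the 76.6% called in the data, so these rates may not hold there. Floors of 3 counts cover counting error only.

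Coordinates are those of GENCODE 29, which holds 58561 of the 60668 identifiers, on the same assembly. microRNA and promoter sequences are from RefSeq on GRCh38.p14. Alternatives were DESeq2 1.42.0 (Wald test or size factors), library size alone, other filters, a replicate block and each library left out with the gene list kept.

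Named are all 10 hosts, their nearest protein-coding neighbours, some overlapping genes, some genes sharing a main seed with them, CAD and NCL, and from each other list the 3 largest rises and falls past the test, with some further members of the small lists and the core enzymes. The hosts and lists were chosen with earlier results of these data known, and the seed-sharing and overlapping genes were added after the values had been seen. Some members of the target lists are not reported here.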

Additional observations from a re-analysis of the deposited data

Results flagged for a closer look

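Each host's 4 values in a condition were checked for a single library standing apart (Dixon's criterion at 95%). Of the 20 sets so checked 1 was marked, MIR99AHG in untreated replicate 3, at 120 CPM against 146, 147 and 149 CPM in the other OMO libraries. Chance marks about 1 in 20 groups. MIR99AHG fell with and without this library, by 0.62 and 0.69 on the log2 scale.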

How the results depend on the processing

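Of 125 values of the 9 tested hosts under the alternatives, 119 kept the direction and the side of the threshold, 5 moved past it (4 for MIR17HG, 1 for MIRLET7BHG) and 1 turned, MIR210HG at 0.03 with library size alone. Besides the fits given above, MIR17HG was called at 0.18 (adjusted p = 0.0406 in edgeR) when more than 4 libraries had to exceed 1 CPM, a filter that removes MIR100HG and leaves 2 hosts past the study's thresholds. Without a filter 4 hosts were called up, MIR4435-2HG included. With any 1 library left out, 3 to 4 hosts rose, 3 to 4 fell and 3 passed the study's thresholds. Over all genes, library size alone gave 7157 up and 4715 down, against 5868 and 5793. The cause was not tested. No gene called in the lists changed direction under another scaling.

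Same-numbered libraries of both groups deviated together with r of 0.157, 0.144, 0.241 and -0.176, so the numbers were not taken as pairs. With a replicate block 5962 genes rose and 5843 fell, and 3 hosts rose and 3 fell. Not every library correlated best with its own number. Low counts limit MIR100HG and MIR4435-2HG in OMO, at 7 to 22 and 8 to 22 counts.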
